A study of Mus musculus with 8 samples.

Results

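The 36 genes described here encode the carriers and enzymes that bring glucose into the cell and turn it into pyruvate and lactate, with the pyruvate dehydrogenase kinases and Hif1a as regulators. Members were listed by gene symbol, and a gene was read from its brightest probe set. Of the 36 genes, 32 were measured, among 19938 genes in all. The other 4 were Gpi1 (glucose phosphate isomerase), Pfkfb1 and Eno1, for which no probe set carried the symbol, and Gapdh, whose 25 probe sets each name several genes. RNA came from flow-sorted bone marrow cells of C57BL/6J mice and was measured on 8 Affymetrix arrays, with 2 arrays in each of 4 groups. The groups were KLS cells of TG mice, KLS cells of WT mice, MEP cells of TG mice and MEP cells of WT mice. The genotype label of the TG arrays is ∆Hmga2, in a series on overexpression of HMGA2, and the WT mice are labelled wildtype. Each RNA preparation pooled 4 or 6 mice. The sources used here give neither the promoter that drives the transgene nor the age or sex of the mice. KLS stands for marrow cells that carry c-Kit and Sca-1 and lack lineage markers, a fraction that holds stem cells and multipotent progenitors. MEP cells are the progenitors committed to the megakaryocyte and erythroid lineages.

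Glycolysis takes glucose to pyruvate in the cytoplasm. Lactate dehydrogenase then turns pyruvate into lactate, which leaves the cell through monocarboxylate carriers, or the pyruvate dehydrogenase complex passes it to mitochondria, a step that the pyruvate dehydrogenase kinases inhibit. Stem cells of the marrow are known for relying on glycolysis, and Hif1a encodes the oxygen-regulated subunit of a transcription factor that induces many of these genes. Red cells depend on glycolysis alone for energy, and the erythroid lineage expresses its own pyruvate kinase from Pklr and the mutase Bpgm.

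Hmga2, the gene altered in the TG mice, encodes a high mobility group protein that binds chromatin, and 1 probe set measured it. The sources used here do not say whether this probe set lies in the part of the transcript that ∆Hmga2 keeps. The log2 level of Hmga2 was 7.35 and 7.11 in TG KLS, against 6.85 and 7.12 in WT KLS, and 6.95 and 6.99 in TG MEP cells, against 6.70 and 6.74 in WT MEP cells. The TG and WT arrays did not overlap in MEP cells, and they overlapped in KLS cells. TG minus WT over both cell types was 0.25 (95% interval 0.0035 to 0.49), with a limma adjusted p of 0.999 over all genes, so the probe set gave only a weak check of the genotype labels.

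Deposited array medians lay between 6.34 and 6.45, and replicate arrays correlated across genes at 0.981 to 0.988. Of 10 measured stem and progenitor markers, 5 were called higher in KLS than in MEP cells, beside 1.2% of all genes. The mean log2 level of these 10 markers was 7.69 to 8.04 on the KLS arrays and 6.40 to 7.12 on the MEP arrays. All 13 measured erythroid markers had lower values in KLS cells, and 2 were called, beside 0.396% of all genes called lower. Kit and Ly6a were sort markers, so their share of these counts is no finding. Of 6 measured megakaryocyte markers, 4 had higher values in KLS cells, 2 had lower values and 0 were called. Their list means were 6.85 to 7.05 on the KLS arrays and 6.44 to 6.77 on the MEP arrays. The array WT MEP 1 stood apart: the mean of 19 lymphoid markers was 7.95 there, against 6.32 to 6.49 on the other 3 MEP arrays, and the mean of 18 granulocyte and monocyte markers was 8.74 there, against 7.49 to 8.10. Each preparation is a mixture of cells, so a lower value cannot be told apart as fewer cells of a type or less RNA per cell.

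Between the cell types, 5 of the 32 glycolysis genes passed the test (15.6%), which was an adjusted p under 0.05 after limma's test and Benjamini-Hochberg adjustment over all genes. Over all genes, 319 of 19938 passed (1.6%). That full set includes dim genes: with the dimmest 30% left out, 435 of the remaining genes passed, and the same 5 members. The lactate dehydrogenase subunit gene Ldhb, the hexokinase gene Hk3, the pyruvate kinase gene Pkm and the phosphoglycerate mutase gene Pgam1 were higher in KLS than in MEP cells, by 1.63 to 1.87 fold. Among all genes, 1.2% were called higher. The monocarboxylate carrier gene Slc16a1 was lower in KLS cells by 1.45 fold, and 0.396% of all genes were called lower. The members did not move one way as a list: 17 lay above 0 and 15 below, with a median log2 difference of 0.08, against 0.01 over all genes. The size of the difference, without its sign, had a median of 0.27 in the members and 0.11 over all genes. At an unadjusted p under 0.05, 11 members differed (34.4%), 8 higher and 3 lower, beside 14.3% of all genes.

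**Figure D1:**
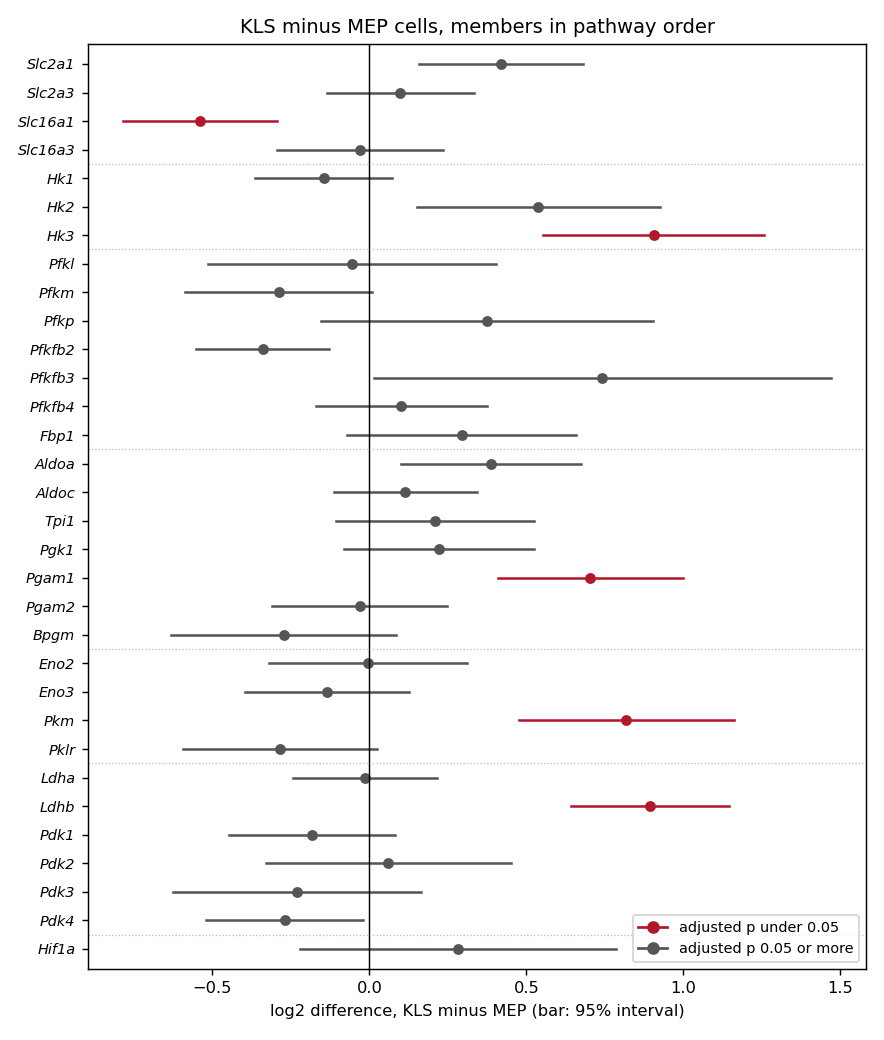
Log2 difference, KLS minus MEP cells averaged over genotypes (horizontal axis), for the 32 measured genes from uptake at the top to Hif1a at the bottom, with 95% intervals from limma and dotted lines between the steps of the pathway. Red marks the 5 genes with an adjusted p under 0.05: Hk3, Pgam1, Pkm and Ldhb lie right of 0, and Slc16a1 lies left of it.

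Of the 4 carriers, only Slc16a1 passed. It encodes a monocarboxylate carrier that moves lactate and pyruvate with protons. Its log2 level was 8.30 and 8.03 in TG KLS, 8.11 and 7.996 in WT KLS, 8.52 and 8.73 in TG MEP, and 8.66 and 8.67 in WT MEP cells. All 4 KLS arrays lay below all 4 MEP arrays. Mean levels were 8.11 ± 0.13 for KLS and 8.65 ± 0.09 for MEP (SD over 4 arrays each), a difference of -0.54 ± 0.11 (limma's SE, 95% interval -0.78 to -0.29), and the adjusted p was 0.04995, just inside the threshold. Slc2a1 encodes a widely expressed glucose carrier, and its level was 7.15 and 6.90 in TG KLS, 7.28 and 7.18 in WT KLS, 6.74 and 6.63 in TG MEP, and 6.57 and 6.89 in WT MEP cells. These KLS and MEP arrays did not overlap, but the lowest KLS and highest MEP arrays nearly met, and the difference of 0.42 ± 0.12 did not pass (adjusted p = 0.121). Slc2a3, a second glucose carrier, differed by 0.10 ± 0.10, and Slc16a3, a lactate exporter known as a hypoxia-induced gene, by -0.03 ± 0.12, and neither passed.

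Hexokinases trap glucose in the cell by phosphorylating it. Hk3 is the form known from granulocytes and monocytes. Its log2 level was 7.70 and 7.23 in TG KLS, 7.95 and 7.38 in WT KLS, 6.71 and 6.60 in TG MEP, and 6.69 and 6.64 in WT MEP cells. The KLS arrays were spread over a range in which every value lay above the MEP arrays, which lay close together. Mean levels were 7.57 ± 0.32 for KLS and 6.66 ± 0.05 for MEP (SD over 4 arrays each), a difference of 0.90 ± 0.15 (95% interval 0.55 to 1.26, adjusted p = 0.0362). Beside this, all 18 measured granulocyte and monocyte markers had higher values in KLS cells and 9 were called, with list means of 9.22 to 9.72 on KLS arrays and 7.49 to 8.74 on MEP arrays. Of the 19 lymphoid markers 17 had higher values and 2 were called, and among all genes 1.2% were called higher. The part of these cells in the difference of Hk3, or of any other member, was not tested. Hk2, the insulin- and hypoxia-regulated form, was 6.73 and 6.34 in TG KLS, 6.94 and 6.33 in WT KLS, 6.24 and 5.83 in TG MEP, and 6.17 and 5.94 in WT MEP cells. Again no KLS array overlapped the MEP arrays, and the difference of 0.54 ± 0.17 did not pass (adjusted p = 0.170).

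Hk1, the widely expressed form, is read here from a doubtful probe set. The brightest of its 2 single-gene probe sets, rests on 1 accession that is also listed by all 16 probe sets naming Hk1 together with the ribosomal protein gene Rpl17. Its level was 11.89 and 12.04 in TG KLS, 11.78 and 11.79 in WT KLS, 11.94 and 11.98 in TG MEP, and 12.02 and 12.14 in WT MEP cells. The cell types overlapped, and it differed by -0.15 ± 0.10 between KLS and MEP cells. The other, annotated with RefSeq transcripts of Hk1, averaged 8.94 in KLS and 9.14 in MEP cells, a difference of -0.19, which did not pass either.

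At the phosphofructokinase step, where glycolysis is committed and chiefly controlled, 0 of 7 measured genes passed. The subunit genes differed in different directions, by -0.06 ± 0.20 for Pfkl, by -0.29 ± 0.13 for Pfkm and by 0.37 ± 0.23 for Pfkp. Pfkfb2, Pfkfb3 and Pfkfb4 encode bifunctional enzymes that make and break down the sugar phosphate activating phosphofructokinase. Pfkfb2 was 7.97 and 8.08 in TG KLS, 7.80 and 7.70 in WT KLS, 8.22 and 8.27 in TG MEP, and 8.20 and 8.21 in WT MEP cells. The KLS arrays all lay below the MEP arrays, with a difference of -0.34 ± 0.09 (adjusted p = 0.119). Pfkfb3, the form with the strongest kinase activity, had the widest spread of values. It was 7.55 and 6.90 in TG KLS, 7.69 and 6.81 in WT KLS, 5.99 and 6.48 in TG MEP, and 7.45 and 6.06 in WT MEP cells. WT MEP 1 lay among the KLS arrays while the other 3 MEP arrays lay below them, and the difference of 0.74 ± 0.32 did not pass (adjusted p = 0.339). Fbp1, which runs the step in reverse for gluconeogenesis, differed by 0.29 ± 0.16.

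The enzymes from aldolase to phosphoglycerate mutase cleave the sugar and recover the first ATP. Pgam1, the mutase that moves the phosphate before the enolase step, was 8.06 and 7.71 in TG KLS, 8.08 and 7.78 in WT KLS, 7.03 and 7.34 in TG MEP, and 7.25 and 7.20 in WT MEP cells. KLS and MEP arrays did not overlap. Mean levels were 7.91 ± 0.19 for KLS and 7.21 ± 0.13 for MEP (SD over 4 arrays each), a difference of 0.70 ± 0.13 (95% interval 0.41 to 1.00, adjusted p = 0.0421). A further Pgam1 probe set differed by 0.96 ± 0.32, with a wider error (adjusted p = 0.201 with every probe set tested singly). Aldoa, the aldolase of muscle and red cells, was 10.19 and 9.72 in TG KLS, 10.14 and 9.94 in WT KLS, 9.59 and 9.69 in TG MEP, and 9.51 and 9.64 in WT MEP cells. These arrays did not overlap, and the difference of 0.39 ± 0.13 did not pass (adjusted p = 0.184). Tpi1 (triose phosphate isomerase) and Pgk1 (phosphoglycerate kinase) differed by 0.21 ± 0.14 and 0.22 ± 0.13 and did not pass. The muscle or brain forms Pgam2 and Aldoc differed by -0.03 ± 0.12 and 0.11 ± 0.10. Bpgm, which makes the bisphosphoglycerate that lowers the oxygen affinity of haemoglobin in red cells, differed by -0.27 ± 0.16 and did not pass (adjusted p = 0.526).

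The last steps make pyruvate and lactate, and here genes of the same enzyme family had unlike values. Pkm encodes the pyruvate kinase of most tissues. Its level was 8.66 and 8.21 in TG KLS, 8.86 and 8.55 in WT KLS, 7.99 and 7.55 in TG MEP, and 7.65 and 7.82 in WT MEP cells. Every KLS array lay above every MEP array. Mean levels were 8.57 ± 0.27 for KLS and 7.75 ± 0.19 for MEP (SD over 4 arrays each), a difference of 0.82 ± 0.15 (95% interval 0.48 to 1.16, adjusted p = 0.0421). The brightest Pkm probe set is not the one annotated with RefSeq transcripts, which differed by 1.24 (adjusted p = 0.0264 in its place), a comparison chosen after seeing the data. Pklr, whose red cell form is made in the erythroid lineage, was 7.75 and 7.96 in TG KLS, 7.86 and 8.08 in WT KLS, 8.28 and 8.30 in TG MEP, and 7.84 and 8.37 in WT MEP cells. WT MEP 1 lay within the range of the KLS arrays, and the difference of -0.29 ± 0.14 did not pass (adjusted p = 0.400). The enolase genes Eno2 and Eno3, known from neurons and muscle, differed by 0.00 ± 0.14 and -0.13 ± 0.12.

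Ldhb and Ldha encode the 2 subunits that mix in lactate dehydrogenase. Ldhb was 7.13 and 6.98 in TG KLS, 7.15 and 7.44 in WT KLS, 6.17 and 6.30 in TG MEP, and 6.25 and 6.41 in WT MEP cells. The 2 cell types were separated by more than the spread within either. Mean levels were 7.17 ± 0.19 for KLS and 6.28 ± 0.10 for MEP (SD over 4 arrays each), a difference of 0.89 ± 0.11 (95% interval 0.64 to 1.15), the smallest adjusted p among the members at 0.0126. A dimmer Ldhb probe set gave 0.98 ± 0.18 (adjusted p = 0.0540 with every probe set tested singly). Ldha was 10.01 and 9.84 in TG KLS, 9.70 and 9.86 in WT KLS, 9.89 and 9.94 in TG MEP, and 9.74 and 9.89 in WT MEP cells. Its cell types overlapped throughout, with a difference of -0.01 ± 0.10 and a 95% interval of -0.24 to 0.22, so its interval and that of Ldhb did not overlap. Among the pyruvate dehydrogenase kinases, which hold pyruvate back from mitochondria, Pdk4 lay lower on all KLS arrays (4.55 to 4.90) than on the MEP arrays (4.92 to 5.15). Its difference of -0.27 ± 0.11 did not pass (adjusted p = 0.301), and Pdk1, Pdk2 and Pdk3 differed by -0.18 ± 0.12, 0.06 ± 0.17 and -0.23 ± 0.17. Hif1a differed by 0.28 ± 0.22 and did not pass (adjusted p = 0.685).

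**Figure D2:**
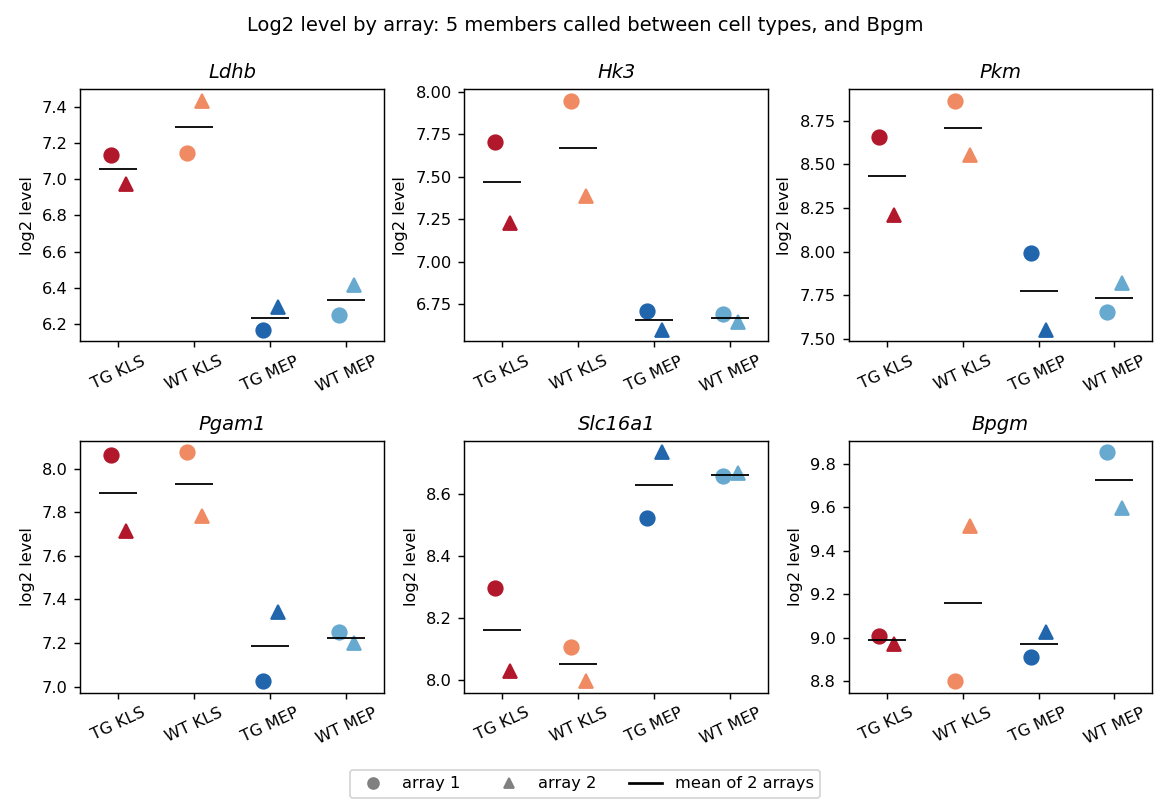
Log2 level (vertical axis, a scale of its own in each panel that does not start at 0) on the 8 arrays for the 5 genes called between cell types and for Bpgm, with circles for array 1, triangles for array 2 and a line at the mean of each group. Ldhb, Hk3, Pkm and Pgam1 lie higher on all 4 KLS arrays than on all 4 MEP arrays, Slc16a1 lies lower, and the 2 WT MEP arrays are the highest for Bpgm.

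The arrays of the 2 cell types did not overlap for 7 members that were higher in KLS cells (Slc2a1, Hk2, Hk3, Aldoa, Pgam1, Pkm and Ldhb) and for 3 that were lower (Slc16a1, Pfkfb2 and Pdk4). Over all genes 9.04% were separated, 4.41% upward and 4.63% downward. The 5 calls rested on few arrays. Their sign was the same on leaving out each of the 8 arrays in turn, with differences of 0.82 to 0.97 for Ldhb, 0.76 to 1.05 for Hk3, 0.71 to 0.93 for Pkm, 0.62 to 0.79 for Pgam1 and -0.61 to -0.47 for Slc16a1. Ldhb passed in 5 of the 8 refits, and missed the threshold without TG KLS 1 (adjusted p = 0.0691), TG MEP 1 (0.0685) or TG MEP 2 (0.0588). Hk3 passed only without TG KLS 2, WT KLS 2 or WT MEP 1, with adjusted p-values of 0.0311 to 0.133 over the 8 refits. Pgam1 passed only without TG KLS 2 or WT MEP 1 (0.0474 to 0.166), Pkm only without TG KLS 2 (0.0432 to 0.150), and Slc16a1 in none (0.0626 to 0.177). On the values as deposited, Ldhb and Hk3 passed and the other 3 did not (adjusted p = 0.0629 for Pgam1, 0.0534 for Pkm and 0.0757 for Slc16a1). With median centring only Ldhb passed (0.0683 for Hk3, 0.114 for Pgam1, 0.0852 for Pkm and 0.112 for Slc16a1). With every probe set tested singly Pgam1 (0.0540), the brighter Pkm probe set (0.0540) and Slc16a1 (0.0601) missed, Pgam1 missed with the mean over its probe sets (0.0722), and Slc16a1 missed with an intensity trend (0.0566) or robust variances (0.0525).

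Promoter windows of 300 bases, most of each before the annotated start, were taken from RefSeq on GRCm38.p6, and 35 of the 36 members matched, with 55 windows. They were searched on both strands for the 2 cores of the hypoxia response element that HIF binds, ACGTG and GCGTG. The E-box CACGTG, which contains the first of them, and AGATAA, a letter run that factors of the GATA family bind, were searched too. ACGTG was present in 41.8% of the member windows, against 19.6% of all 32851 windows and 20.9% of those of protein-coding genes. GCGTG was present in 47.3%, against 32.4% and 38.5%. CACGTG was present in 12.7%, against 7.15% and 7.84%, and AGATAA in 18.2%, against 11.2% and 9.65%. Some windows of a gene overlap, as for Eno1 and Aldoa, so a site can be counted more than once. Counted by gene, ACGTG was present in 19 of 35 members and 5886 of all 27025 genes with a window. The same counts were 20 and 9500 for GCGTG, 7 and 2187 for CACGTG, and 7 and 3432 for AGATAA. The median GC content was 57.3% in the member windows, 52.7% in all windows and 56.3% in those of protein-coding genes, and base composition was not adjusted for. The windows of the 5 genes called between cell types are shown, with each ACGTG or GCGTG on either strand in capitals, since these genes moved in both directions. Slc16a1 (chr3:104638414-104638713, plus strand) had 3 matches to ACGTG and 2 to GCGTG. Its E-box, beginning 200 bases before the start, reads ACGTG on both strands and so gives 2 of those 3 matches. Pgam1 (chr19:41911621-41911920, plus strand) had 1 and 2, Hk3 (chr13:55021336-55021635, minus strand) had 1 and 0, and Ldhb (chr6:142507908-142508207, minus strand) had 0 and 1. Pkm has 2 windows on the plus strand, the first (chr9:59656326-59656625) with 0 and 0 and the second (chr9:59656977-59657276) with 2 and 0. A match describes these letters only.
Slc16a1: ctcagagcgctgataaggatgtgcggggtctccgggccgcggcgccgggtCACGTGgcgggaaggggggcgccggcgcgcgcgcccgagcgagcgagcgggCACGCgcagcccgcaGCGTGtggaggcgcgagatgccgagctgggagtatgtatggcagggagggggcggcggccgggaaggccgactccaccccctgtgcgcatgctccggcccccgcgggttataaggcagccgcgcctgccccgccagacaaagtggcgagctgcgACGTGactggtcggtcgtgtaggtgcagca
Pgam1: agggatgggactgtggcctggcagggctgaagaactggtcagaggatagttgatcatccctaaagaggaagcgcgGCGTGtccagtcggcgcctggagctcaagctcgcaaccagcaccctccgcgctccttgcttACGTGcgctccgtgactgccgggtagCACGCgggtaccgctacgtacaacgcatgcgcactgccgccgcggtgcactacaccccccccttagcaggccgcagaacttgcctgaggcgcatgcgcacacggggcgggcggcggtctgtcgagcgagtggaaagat
Hk3: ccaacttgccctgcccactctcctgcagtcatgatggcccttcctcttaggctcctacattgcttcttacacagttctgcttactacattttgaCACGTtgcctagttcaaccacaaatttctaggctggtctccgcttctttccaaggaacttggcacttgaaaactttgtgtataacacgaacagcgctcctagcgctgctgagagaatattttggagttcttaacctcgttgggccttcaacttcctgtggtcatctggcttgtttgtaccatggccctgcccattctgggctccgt
Ldhb: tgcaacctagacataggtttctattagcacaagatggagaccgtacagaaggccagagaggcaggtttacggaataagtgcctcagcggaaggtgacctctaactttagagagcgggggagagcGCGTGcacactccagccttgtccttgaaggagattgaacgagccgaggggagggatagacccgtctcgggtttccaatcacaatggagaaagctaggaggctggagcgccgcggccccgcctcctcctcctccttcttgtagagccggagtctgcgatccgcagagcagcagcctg
Pkm, first window: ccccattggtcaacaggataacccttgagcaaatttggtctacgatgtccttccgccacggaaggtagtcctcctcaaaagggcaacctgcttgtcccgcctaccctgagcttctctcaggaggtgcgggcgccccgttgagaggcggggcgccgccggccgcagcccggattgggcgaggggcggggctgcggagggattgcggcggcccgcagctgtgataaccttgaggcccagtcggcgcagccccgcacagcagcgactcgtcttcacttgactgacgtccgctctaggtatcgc
Pkm, second window: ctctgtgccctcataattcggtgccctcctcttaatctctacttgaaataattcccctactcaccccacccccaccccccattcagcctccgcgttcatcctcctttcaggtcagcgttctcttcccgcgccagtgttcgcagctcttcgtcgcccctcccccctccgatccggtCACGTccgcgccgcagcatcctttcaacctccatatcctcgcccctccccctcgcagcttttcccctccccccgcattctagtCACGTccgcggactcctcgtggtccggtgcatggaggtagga

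By genotype, no glycolysis gene passed the test. In KLS cells 0 of 32 members and 0 of 19938 genes (0%) were called for TG minus WT, and the same counts held in MEP cells (0%), over both cell types (0%) and for the interaction, the genotype difference in KLS minus that in MEP cells (0%). At an unadjusted p under 0.05 in limma's test, 0 members differed in KLS cells, beside 2.51% of all genes, 2 in MEP cells (Bpgm and Pfkfb4), beside 3.71%, 1 over both cell types (Bpgm), beside 3.26%, and 0 for the interaction, beside 2.27%. The median log2 difference of the members was -0.02 in KLS and -0.04 in MEP cells, against -0.02 and -0.01 over all genes. Its median size, without the sign, was 0.11 in KLS cells and 0.09 in MEP cells, against 0.11 and 0.12 over all genes. The genotype differences of the 2 cell types use separate arrays, but they share an estimate of the spread. Whether KLS and MEP cells shared mice is not stated, so these differences are set side by side and not taken as independent.

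**Figure D3:**
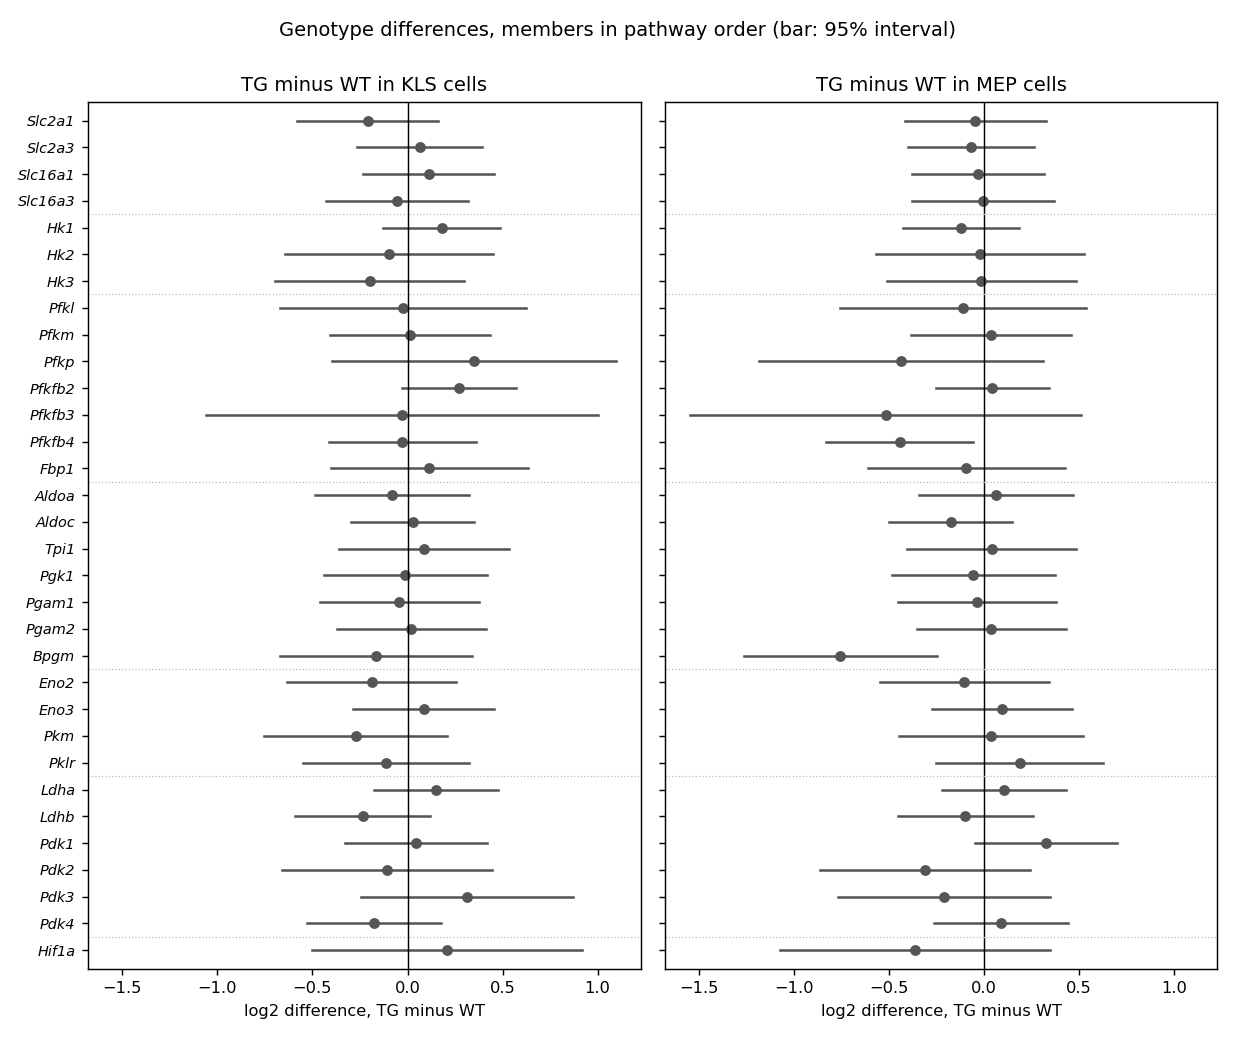
Log2 difference, TG minus WT (horizontal axis), in KLS cells (left) and MEP cells (right) for the 32 measured genes in pathway order, with 95% intervals from limma. No gene passed an adjusted p of 0.05. The intervals of Bpgm and Pfkfb4 in MEP cells lie below 0, and all others include it.

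In MEP cells the smallest p belonged to Bpgm. Its log2 level was 8.91 and 9.03 in TG MEP cells, against 9.85 and 9.60 in WT MEP cells, and 9.01 and 8.97 in TG KLS, against 8.80 and 9.52 in WT KLS cells. In MEP cells both TG arrays lay below both WT arrays, while in KLS cells the 2 WT arrays lay on either side of the TG arrays. The MEP means were 8.97 ± 0.08 in TG and 9.73 ± 0.18 in WT cells (SD, n = 2 each), a difference of -0.76 ± 0.22 (95% interval -1.26 to -0.25), which did not pass (adjusted p = 0.999975). Without WT MEP 1, the array with high lymphoid and granulocyte markers, the difference was -0.63. In KLS cells it was -0.17 ± 0.22, and the interaction of 0.59 ± 0.32 did not pass and was 0.23 on leaving out WT KLS 1 and 0.95 on leaving out WT KLS 2. Over both cell types it was -0.46 ± 0.16 (adjusted p = 0.999), and -0.28 without WT KLS 2. The 13 erythroid markers had a list mean of 9.56 and 9.63 in TG MEP cells, against 9.80 and 9.85 in WT MEP cells. For TG minus WT in MEP cells, 7 of them lay above 0 and 6 below, with a median of 0.004 and a lowest value of -1.46. The part of the erythroid markers in the values of Bpgm was not tested.

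Pfkfb4, a bifunctional regulator of the phosphofructokinase step, was 5.07 and 5.40 in TG MEP cells, against 5.59 and 5.77 in WT MEP cells, and 5.52 and 5.58 in TG KLS, against 5.43 and 5.72 in WT KLS cells. These levels were low: their mean of 5.51 lay below the deposited array medians of 6.34 to 6.45. Pfkfb4 was among the dimmest 30% of genes that an alternative left out. The TG arrays were the lower ones in MEP cells only. The difference was -0.45 ± 0.17 in MEP cells (95% interval -0.83 to -0.06) and -0.03 ± 0.17 in KLS cells, and the interaction was 0.42 ± 0.24, which did not pass. The MEP difference was -0.61 without TG MEP 2 and -0.28 without TG MEP 1, and the interaction was 0.26 without TG MEP 1. Pdk1, which inhibits pyruvate dehydrogenase, was 8.29 and 8.25 in TG MEP cells, against 7.74 and 8.16 in WT MEP cells. Its difference of 0.32 ± 0.16 was 0.12 without WT MEP 1. Pfkp, the platelet type of phosphofructokinase, was 6.61 on both TG MEP arrays, against 7.32 and 6.77 in WT MEP cells. Its difference of -0.44 ± 0.33 was -0.16 without WT MEP 1. Pdk2 was 5.60 and 6.33 in TG MEP cells, against 6.27 and 6.28 in WT MEP cells, so 1 TG array carried its difference of -0.31 ± 0.24, which was 0.053 without it (TG MEP 1) and -0.68 without TG MEP 2.

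In KLS cells the 5 members with the smallest p were Pfkfb2, Ldhb, Hk1, Slc2a1 and Pkm. Pfkfb2 was 7.97 and 8.08 in TG cells, against 7.80 and 7.70 in WT cells, and both TG arrays were higher. The difference was 0.27 ± 0.13 (95% interval -0.03 to 0.57). It was 0.04 ± 0.13 in MEP cells, and the interaction was 0.23 ± 0.19. Ldhb was 7.13 and 6.98 in TG cells, against 7.15 and 7.44 in WT cells, with a difference of -0.24 ± 0.16, and its dimmer probe set gave 0.23 ± 0.26, the opposite sign. Hk1 differed by 0.18 ± 0.14 on the doubtful probe set and by -0.03 on the one annotated with RefSeq transcripts. Slc2a1 differed by -0.21 ± 0.16, with both TG arrays below both WT arrays, and Pkm differed by -0.27 ± 0.21 with overlapping arrays. With arrays left out in turn, Pkm ran from -0.50 (without TG KLS 1) to -0.05 (without TG KLS 2), Slc2a1 from -0.33 to -0.085 without the same arrays, and Ldhb was -0.38 on leaving out WT KLS 1 and -0.091 on leaving out WT KLS 2. None of these had an unadjusted p under 0.05.

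Of the 2 arrays against 2, TG and WT did not overlap in KLS cells for 2 members that were higher in TG (Hk1 and Pfkfb2) and 4 that were lower (Slc2a1, Eno2, Ldhb and Pdk4), beside 11.7% and 17.2% of all genes, or 29% in either direction. In MEP cells 3 were higher (Pfkfb2, Ldha and Pdk1) and 5 lower (Hk1, Pfkp, Pfkfb4, Aldoc and Bpgm), beside 13% and 17.2%, or 30.2% in either direction. Over both cell types, with 4 arrays against 4, no member was separated, beside 1.6% of all genes (0.582% higher and 1.02% lower). After Bpgm and Pfkfb4, the smallest p for the interaction belonged to Pfkp (0.78 ± 0.47), Hk1 (0.30 ± 0.19) and Pdk3 (0.52 ± 0.35). With arrays left out in turn these ran from 0.37 (without TG KLS 1) to 1.20 (without TG KLS 2) for Pfkp and from 0.15 to 0.90 for Pdk3, without the same arrays. On the Hk1 probe set annotated with RefSeq transcripts the interaction was 0.03. Its levels were 8.90 and 8.96 in TG KLS, against 9.19 and 8.73 in WT KLS, and 9.13 and 9.08 in TG MEP, against 8.99 and 9.34 in WT MEP cells, so Hk1 overlapped between the genotypes there in both cell types. Pdk3 was 9.25 and 8.50 in TG KLS, against 8.71 and 8.42 in WT KLS, and 8.77 and 8.92 in TG MEP cells, against 9.23 and 8.88 in WT MEP cells, so the TG and WT arrays overlapped in both cell types. After the members with the smallest p over both cell types, Bpgm and Pfkfb4, came Pfkfb2 (0.16 ± 0.09), Pdk1 (0.18 ± 0.12) and Ldhb (-0.17 ± 0.11). The dimmer Ldhb probe set gave 0.12, the opposite sign, and the mean over its probe sets gave -0.024. Leaving out WT KLS 1 gave -0.24 for Ldhb and leaving out WT KLS 2 gave -0.095. Leaving out WT MEP 1 gave 0.079 for Pdk1 and leaving out WT MEP 2 gave 0.29.

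Replicate arrays differed by about as much as many of these differences. Of the 32 members, 11 were more than 0.25 higher on array 1 than on array 2 in both KLS groups (Hk2, Hk3, Pfkl, Pfkp, Pfkfb3, Tpi1, Pgk1, Pgam1, Pkm, Pdk3 and Hif1a), a share of 34.4%, beside 10.1% of all genes, and 0 were lower by that much in both, beside 3.43%. Hif1a, for example, was 8.32 and 7.63 in TG KLS, 7.95 and 7.58 in WT KLS, 7.16 and 7.65 in TG MEP, and 8.15 and 7.39 in WT MEP cells. Both KLS groups had their higher value on array 1, and in MEP cells the WT array 1 and the TG array 2 were the higher ones. Pfkp was 7.79 and 6.96 in TG KLS cells and 7.42 and 6.63 in WT KLS cells. Marker lists moved with the array number too. The stem and progenitor markers had means of 8.04 and 7.69 in TG KLS and 8.03 and 7.85 in WT KLS cells, and the lymphoid markers 7.19 and 7.03 in TG KLS and 7.49 and 7.25 in WT KLS cells, so both were higher on array 1 in both groups. The erythroid markers were lower on array 1 in both, at 9.03 and 9.30 in TG KLS and 9.19 and 9.45 in WT KLS cells. The granulocyte and monocyte markers were higher on array 1 in the TG group, at 9.72 and 9.22, and not in the WT group, at 9.52 and 9.59. Their part in the members' values was not tested. On WT MEP 1, 5 members lay more than 0.25 above the other 3 MEP arrays (Pfkp, Pfkfb3, Bpgm, Pdk3 and Hif1a), a share of 15.6%, beside 9.47% of all genes, and 3 lay as far below them (Tpi1, Pklr and Pdk1), a share of 9.38%, beside 7.82%.

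**Figure D4:**
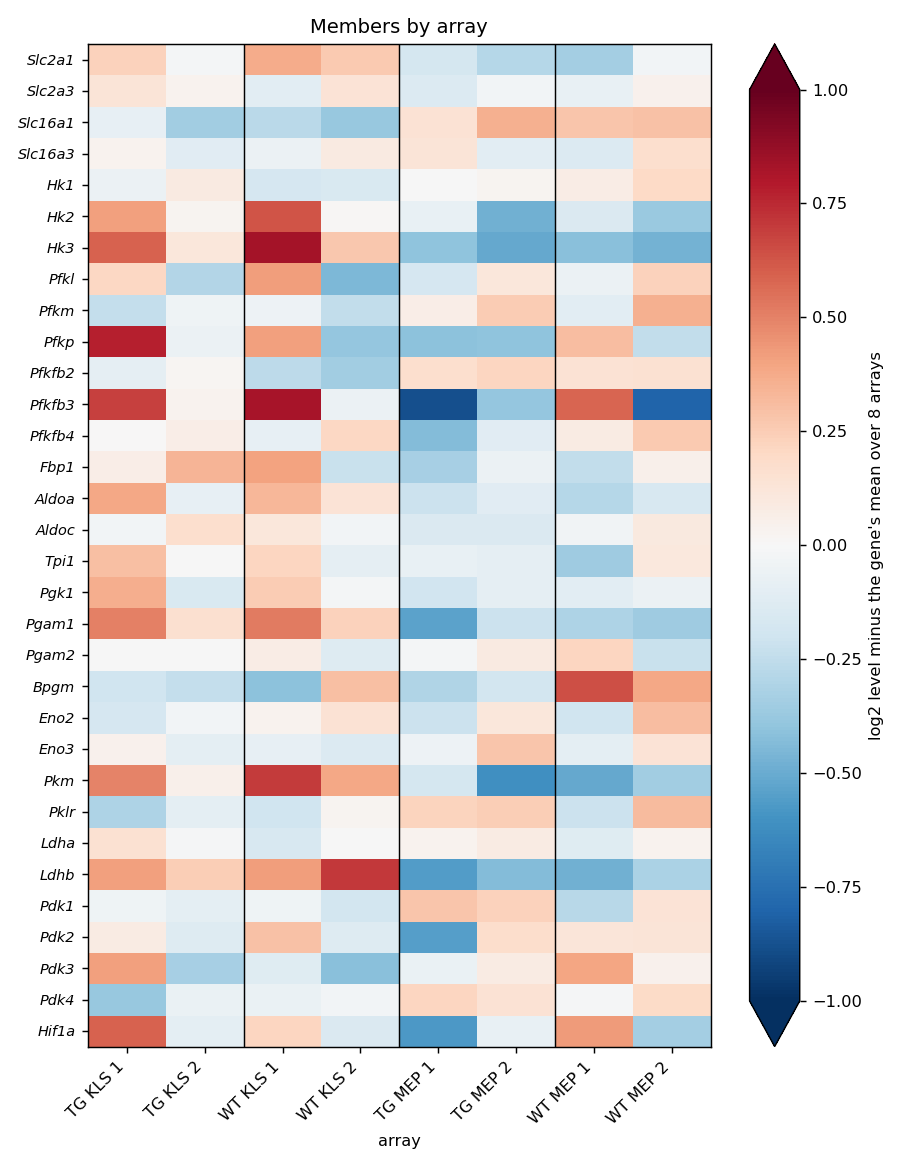
Log2 level of each of the 32 genes (rows, in pathway order) on each of the 8 arrays (columns), as the difference from the gene's own mean over the 8 arrays, with red for higher and blue for lower. Hk3, Pgam1, Pkm and Ldhb are red on all KLS arrays and blue on all MEP arrays. Pfkfb3 and Hif1a are red on the arrays TG KLS 1, WT KLS 1 and WT MEP 1.

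Genes of connected pathways were read from separate lists. Over all genes, 1.6% were called between KLS and MEP cells, and 9279 of 19938 lay below 0, with a median of 0.01. Of 25 measured genes of pyruvate oxidation and the TCA cycle, 0 were called between KLS and MEP cells, with 19 below 0 and a median of -0.09. The smallest p there was that of Idh3a, an isocitrate dehydrogenase subunit, at -0.31 ± 0.11. Of 10 measured pentose phosphate genes, 0 were called, with a median of 0.01, and Pgd, the phosphogluconate dehydrogenase, had the smallest p (0.44 ± 0.19). Of 20 HIF pathway genes and HIF targets outside glycolysis, 1 was called, Egln3, an oxygen sensor that marks HIF for degradation and is itself induced by it. Egln3 was 8.44 and 7.14 in TG KLS, 7.52 and 7.30 in WT KLS, 6.26 and 6.04 in TG MEP, and 6.42 and 6.09 in WT MEP cells. All KLS arrays lay above all MEP arrays, with TG KLS 1 far above the rest, and the difference was 1.39 ± 0.25 (2.63 fold, adjusted p = 0.0395). It passed on leaving out TG KLS 1, TG KLS 2 or WT MEP 1, and missed without each of the other 5 arrays (adjusted p up to 0.141), and with median centring (0.0641), all probe sets singly (0.0535) or robust variances (0.0526).

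Of 15 genes of glycogen metabolism and gluconeogenesis, 1 was called, Pygl, the glycogen phosphorylase known from liver and myeloid cells. Over all genes, 1.6% were called. Pygl was 8.75 and 8.38 in TG KLS, 8.46 and 8.78 in WT KLS, 7.55 and 7.54 in TG MEP, and 8.25 and 7.82 in WT MEP cells. The KLS arrays were all higher, with a difference of 0.80 ± 0.14 (adjusted p = 0.0382) that passed only without TG KLS 2 or WT MEP 1 and otherwise missed (adjusted p up to 0.143). It also missed on the values as deposited (0.0586), with median centring (0.0936) and with all probe sets singly (0.0505). Of 21 other hexose carriers and regulators, 1 was called, Emb, which encodes embigin, a partner protein that carries monocarboxylate carriers to the membrane. Emb was 10.58 and 9.88 in TG KLS, 10.24 and 10.07 in WT KLS, 6.59 and 6.95 in TG MEP, and 8.75 and 7.25 in WT MEP cells. The difference of 2.80 ± 0.30 (6.99 fold, 95% interval 2.12 to 3.49, adjusted p = 0.00837) was opposite in sign to that of the carrier gene Slc16a1. It missed the threshold only without TG MEP 1 (adjusted p = 0.0629). The granulocyte and monocyte markers, given above, were also higher in KLS cells. The lymphoid list mean was 7.03 to 7.49 on the KLS arrays and highest on WT MEP 1, at 7.95. The part of these markers in the values of Egln3, Pygl and Emb was not tested. All 18 measured cell cycle genes had lower values in KLS cells, with a median of -0.26 and 0 called. The part of the cell cycle in the lower values of Slc16a1 or of the TCA cycle list was not tested.

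By genotype, 0 genes of these 5 lists were called in any contrast. In KLS cells the smallest p in each list belonged to Idh3a (0.37 ± 0.15), to Prps2, which makes the ribose precursor of nucleotides (0.25 ± 0.20), to the HIF subunit gene Hif3a (0.27 ± 0.15), to the muscle glycogen phosphorylase gene Pygm (-0.35 ± 0.15) and to Bsg, the basigin partner of monocarboxylate carriers (-0.36 ± 0.18). In MEP cells it belonged to Idh3a (0.25 ± 0.15), to the sedoheptulose kinase gene Shpk (0.30 ± 0.16), to Bnip3, a HIF-induced receptor for the removal of mitochondria (0.45 ± 0.19), to Pygl (-0.49 ± 0.20) and to Emb (-1.23 ± 0.42). Of the 15 glycogen genes 14 lay below 0 in MEP cells, with a median of -0.19, against -0.01 over all genes. Beside the glycogen genes, all 18 granulocyte and monocyte markers and 17 of 19 lymphoid markers lay below 0 in MEP cells. Their medians were -0.77 and -0.85, with 0 called. The lymphoid list mean was 6.32 and 6.40 in TG MEP cells, against 7.95 on WT MEP 1 and 6.49 on WT MEP 2. For the granulocyte and monocyte markers it was 7.49 and 7.68, against 8.74 and 8.10. The part of these markers in the values of Pygl and Emb was not tested. Emb in MEP cells was -0.48 without WT MEP 1, and it was -1.98 and passed without WT MEP 2 (adjusted p = 0.0332).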

How the data were processed

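Values were read from the table of the series, which holds log2 values per the deposited numbers, for 35556 probe sets on 8 arrays. The authors used Affymetrix Expression Console, per the submitters' processing notes, with no version named; how the deposited log2 values were background-corrected, summarized and normalized is not given in the sources used. The scale was read from the values, and the number of arrays limits precision. Because the array medians spanned 0.106, above the limit of 0.1 set for using them unchanged, quantile normalization was applied. Platform annotation gave 1 symbol for 21789 probe sets, several for 1621 and none for 12146, and only the first were used. The brightest probe set stood for a gene, which left 19938 genes. Symbols were looked up by Entrez identifier in RefSeq (GRCm38.p6), which held 21698 of them and changed 0.

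limma 3.58.1 in R 4.3.3 fitted 1 mean for each of 4 groups over 8 arrays (4 residual and 4.82 prior degrees of freedom). Tests were two-sided with Benjamini-Hochberg adjustment over all genes, and a call needed an adjusted p under 0.05. Differences carry limma's SE, and means carry the SD. The series' design text calls the 8 RNA preparations independent and does not say whether KLS and MEP cells of a number shared mice. The replicate numbers were not used as pairs in the reported tests, since the labels state no pairing and correlations of same-numbered deviations ran from -0.28 to 0.38. Code was tested on simulated data. Values on every array are given for members called in a contrast and, where fewer than 5 were called, for those with the smallest p up to 5; other members are named by role. Of each pathway list up to 4 called genes, or else the gene with the smallest p, are named. Members beyond this rule whose arrays are given (Hk2, Pfkfb3, Aldoa, Pklr, Ldha, Hif1a) were chosen after their values were seen. Members and lists were chosen with earlier results of these data known. Alternatives were the deposited values, centring on medians, dropping the dimmest 30% of genes, averaging a gene's probe sets, all probe sets singly, an intensity trend, robust variances, a replicate block, an adjusted p under 0.10 and each array left out. The RefSeq probe sets of Hk1 and Pkm were tried after seeing the data.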

Additional observations from a re-analysis of the deposited data

How the results depend on the processing

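Of the 5 glycolysis genes called between KLS and MEP cells, 2 (Hk3 and Ldhb) were called on the values as deposited, 1 (Ldhb) with median centring and 3 (Hk3, Ldhb and Pkm) with all probe sets tested singly; with arrays left out in turn the count ran from 0 (without TG KLS 1, TG MEP 1 or TG MEP 2) to 4 (without TG KLS 2). Over all genes, 319 calls (240 higher, 79 lower) became 123 with median centring (79 higher, 44 lower), 179 with all probe sets singly, 780 at an adjusted p under 0.10 and 1 to 738 with arrays left out, the lowest without TG MEP 1 and the highest without WT MEP 1. Whether the replicate numbers pair the arrays is not settled, since the labels do not say so and same-numbered deviations correlated at -0.28 to 0.38; with the replicate number as a block 562 genes and 6 members were called between cell types (Hk2 was added), and 1 gene and 0 members for TG minus WT over both cell types. Leaving out arrays gave 0 to 144 genes for TG minus WT in MEP cells, 0 to 67 over both cell types and 0 to 10 for the interaction, above 0 only without WT MEP 2, with 0 members in each. The members' median ran from -0.074 to 0.11 for TG minus WT in KLS cells, from -0.12 to 0.01 in MEP cells, from -0.12 to 0.032 over both cell types, from -0.032 to 0.16 for the interaction and from 0.025 to 0.12 for KLS minus MEP. Signs turned for values far from the threshold: with the RefSeq probe sets, Hk1 was -0.029 for TG minus WT in KLS cells and -0.044 over both cell types, and Pkm was -0.041 in MEP cells; with arrays left out, Prps2 ran from -0.045 (without TG KLS 1) to 0.55 in KLS cells and from -0.0091 to 0.59 for the interaction, and Pdk2 from -0.68 to 0.053 (without TG MEP 1) in MEP cells; with the mean over probe sets, the interaction of Bnip3 was 0.019. The causes were not tested.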
